A study of Mus musculus with 25 samples.

Results

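This account covers the effect of the offspring's own diet on hypothalamic microRNAs (miRNAs) in male mice whose dams had eaten a hypercaloric diet. HCD-HCD males, which ate the hypercaloric diet themselves, were set against HCD-RD males, which were given a regular diet after weaning. The comparison rests on 6 of the 25 libraries of the series, 3 in each group. All animals were wild-type C57BL/6J mice, and whole hypothalamus was taken at 3 months of age. Dams ate either the hypercaloric diet (HCD, 52% fat with high sucrose) or the regular chow diet (RD) for 1 month before mating, through pregnancy and lactation. HCD-HCD and HCD-RD males thus share the maternal HCD and differ in the diet eaten from weaning. The other male groups were RD-HCD, with 3 libraries from males on HCD born to RD dams, and RD-RD, with 4 libraries from males on RD born to RD dams.

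Separate animals per library are not stated in the labels, and no dam or litter is named. The p-values therefore cover only the scatter among these libraries, and part or all of it may be technical. The tables used here give 1 fold and 1 p per miRNA for each group over RD-RD and no value per library. Sequencing depth is unknown. The contrast was formed for each miRNA as the HCD-HCD fold over the HCD-RD fold, so that the RD-RD level cancels. Of 1618 miRNAs in the male table, the 728 with no low-count remark in either comparison were read here. The authors' remark marks a mean count below 10 unique molecules. All 24 cell type markers looked up were among them, with neuronal miR-124-3p, miR-9-5p and miR-128-3p and also miRNAs of muscle and liver. Library names carry order numbers, 1, 3 and 7 in HCD-HCD and 9, 10 and 15 in HCD-RD. The labels do not say what they stand for. They are not 1 running order over all libraries, since 4, 7 and 8 recur. Each of these recurs through an RD-RD male library, such as 7 in an HCD-HCD and an RD-RD library. No number recurs among the other libraries listed, so HCD-HCD, HCD-RD and RD-HCD males may still share 1 order. Folds over RD-RD and the comparison of both maternal diets may also carry whatever the numbers mark. As every HCD-HCD number is below every HCD-RD number, whatever they mark and diet cannot be told apart if it follows their order. The RD-HCD male libraries have different replicate numbers in the workbook and in their titles, with one group code in both.

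A miRNA is a short RNA that guides an Argonaute protein to messenger RNAs, mainly through the bases of its seed, and lowers their translation and stability. Each hairpin precursor gives a 5p and a 3p arm, of which one is usually the more abundant guide. The hypothalamus holds the neurons that sense leptin, insulin and nutrients and set food intake and energy use, together with glia, vessels and ependymal cells. Hypercaloric feeding is known to alter inflammatory signalling and feeding circuits there. Because whole tissue was measured, fewer cells of a type and less RNA per cell cannot be told apart.

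The sequences below belong to the miRNAs with the smallest p-values in each direction, and they are shown because their base composition differed along with their direction. Of the 20 leading miRNAs, miR-126a-5p, miR-376c-3p and miR-320-3p were not matched to a sequence and are not shown. They are RefSeq mature sequences on GRCm38.p6, written 5′ to 3′, with the seed (bases 2 to 8) in capitals. The first set stood higher in HCD-HCD males.
miR-544-5p: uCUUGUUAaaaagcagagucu
miR-582-3p: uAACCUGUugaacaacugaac
miR-362-3p: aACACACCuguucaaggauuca
miR-376b-3p: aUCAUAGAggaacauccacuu
miR-99a-5p: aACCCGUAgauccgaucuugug
miR-152-3p: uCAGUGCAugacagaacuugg
miR-136-3p: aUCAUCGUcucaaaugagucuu
miR-126b-3p: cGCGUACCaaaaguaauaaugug
The second set stood lower in HCD-HCD males.
let-7d-3p: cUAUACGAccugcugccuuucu
miR-7080-3p: cAGGCUCAccccuccguucccu
miR-463-3p: uGAUAGACaccauauaagguag
miR-668-3p: uGUCACUCggcucggcccacuacc
miR-667-3p: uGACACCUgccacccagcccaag
miR-92b-3p: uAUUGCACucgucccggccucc
miR-149-3p: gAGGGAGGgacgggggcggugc
miR-193b-5p: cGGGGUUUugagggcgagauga
miR-7058-3p: cUCGUUCCuuccuuucuuccag
The GC content of the first set lies between 33.3% (miR-544-5p) and 50% (miR-99a-5p). The second set lies between 50% and 81.8% (miR-149-3p), except for miR-463-3p at 36.4%. All the seeds shown differ from each other.

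No miRNA passed the test between HCD-HCD and HCD-RD males. Of 713 miRNAs tested, 0 (0%) had an adjusted p under 0.05 in a two-sided normal test with Benjamini-Hochberg adjustment, and the smallest adjusted p was 0.0854. At an unadjusted p under 0.05 there were 56 miRNAs (7.85% of those tested), against 35.65 that the threshold alone gives. Of these, 30 (4.21%) had a ratio above 1 and 26 (3.65%) a ratio below 1. An unadjusted p under 0.01 was reached by 18 miRNAs, 12 with a ratio above 1 and 6 below. The other 15 of the 728 miRNAs had no p or no usable error.

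The ratios were centred near 1. The median log2 ratio of HCD-HCD over HCD-RD was 0.02, with quartiles of -0.21 and 0.23, and 374 miRNAs stood above 1, 331 below and 23 at equal folds. Ratios ran between 0.418 and 1.95, and 3 miRNAs (miR-463-3p, miR-149-3p and miR-7080-3p) differed by at least 2-fold. The median standard error of the log2 ratio was 0.33. At that precision the 95% interval excluded a 2-fold difference in either direction for 456 miRNAs (64.0% of those tested), but a 1.5-fold difference for only 75 (10.5%).

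**Figure D1:**
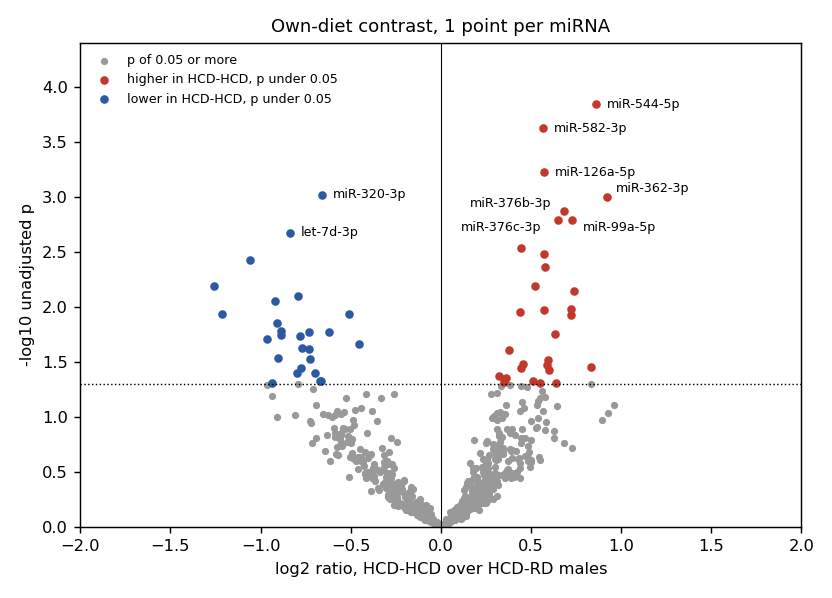
The log2 ratio of HCD-HCD over HCD-RD males (horizontal) is plotted against the minus log10 of its unadjusted p (vertical), with 1 point per miRNA tested and a dotted line at 0.05. The 30 red points and 26 blue points lie above the line on either side, and none of them passed the adjusted test.

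Among the 10 miRNAs with the smallest p on the higher side were 4 of the imprinted Dlk1-Dio3 region on chromosome 12. That region holds a large miRNA cluster expressed from the maternal allele in brain. It supplied 87 of the 728 miRNAs read, and miR-667-3p and miR-668-3p among the 10 leading lower ones also lie there. In the authors' deposited table, miR-544-5p stood at 0.78 of the RD-RD level in HCD-HCD males and 0.43 in HCD-RD males. The ratio was 1.81 (95% interval 1.33 to 2.47, unadjusted p = 0.000144). The HCD-RD males were thus the lower group, and the HCD-HCD males lay between them and RD-RD. The authors' deposited table gave miR-376b-3p at 1.06 in HCD-HCD and 0.66 in HCD-RD males, a ratio of 1.61 (95% interval 1.20 to 2.15). Its neighbour miR-376c-3p stood at 1.54 in HCD-HCD and 0.98 in HCD-RD males in the authors' deposited table (ratio 1.57, 95% interval 1.19 to 2.08). For miR-136-3p, an arm of a hairpin that lies antisense to Rtl1, the authors' deposited table gave 0.58 in HCD-HCD and 0.39 in HCD-RD males (ratio 1.49, 95% interval 1.14 to 1.94). Both groups stood below RD-RD for miR-136-3p and miR-544-5p, but only HCD-RD did for miR-376b-3p and miR-376c-3p.

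The other 6 of the higher side lie outside that region. The hairpin of miR-582 lies in an intron of Pde4d, a cyclic AMP phosphodiesterase gene (GRCm38 chr13:109324744-109324824, plus strand). In the authors' deposited table, miR-582-3p stood at 1.32 in HCD-HCD and 0.89 in HCD-RD males. Its ratio of 1.48 had a narrow 95% interval, 1.20 to 1.83 (unadjusted p = 0.000239). The hairpin of miR-362 lies in an intron of Clcn5, a chloride channel gene (chrX:7241982-7242046, minus strand). With 1.40 in HCD-HCD and 0.74 in HCD-RD males in the authors' deposited table, miR-362-3p had the highest ratio of the 10, 1.89 (95% interval 1.29 to 2.77). Its folds lay on opposite sides of RD-RD.

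miR-126a is the miRNA typical of endothelium, where it promotes vascular growth factor signalling, and miR-126b comes from the opposite strand of its locus. The authors' deposited table gave miR-126a-5p at 1.34 in HCD-HCD and 0.90 in HCD-RD males (ratio 1.49, 95% interval 1.19 to 1.87). For miR-126b-3p the authors' deposited table had 1.15 in HCD-HCD and 0.77 in HCD-RD males, again a ratio of 1.49 (95% interval 1.13 to 1.97). The other arm, miR-126a-3p, stood closer to 1, with a ratio of 1.13 (95% interval 0.897 to 1.43).

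miR-152-3p, a member of the miR-148 family known to repress the DNA methyltransferase Dnmt1, is encoded in an intron of Copz2 (chr11:96850393-96850465, plus strand). The authors' deposited table placed it at 1.13 in HCD-HCD and 0.83 in HCD-RD males, and the ratio was 1.36 (95% interval 1.11 to 1.67). miR-99a-5p, whose family is known to repress mTOR, comes from an intron of the noncoding gene Mir99ahg (chr16:77598936-77599000, plus strand). Here both groups exceeded RD-RD, with 2.43 in HCD-HCD and 1.47 in HCD-RD males in the authors' deposited table. The ratio was 1.65 (95% interval 1.21 to 2.26). Adjusted p-values of the 10 miRNAs lay between 0.0854 and 0.238.

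On the lower side, miR-320-3p had the smallest p. It arises from a short hairpin that is cut by Dicer but not by Drosha. In the authors' deposited table it stood at 0.83 in HCD-HCD and 1.31 in HCD-RD males, and the ratio was 0.634 (95% interval 0.483 to 0.831). let-7d-3p, the passenger arm of a let-7 hairpin, lies in an exon of the noncoding gene 6720427I07Rik (chr13:48536012-48536114, minus strand). It stood at 0.98 in HCD-HCD and 1.75 in HCD-RD males in the authors' deposited table, a ratio of 0.560 (95% interval 0.387 to 0.811). The guide arm let-7d-5p had nearly equal folds of 1.62 in HCD-HCD and 1.63 in HCD-RD males in the authors' deposited table, with a ratio of 0.994 (95% interval 0.741 to 1.33).

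For 8 of the 10 on the lower side the fold was near or below RD-RD in HCD-HCD males and above it in HCD-RD males, the others being miR-668-3p and miR-92b-3p. miR-463-3p, from a hairpin on chromosome X with no gene on its strand (chrX:66799223-66799297, minus strand), had the lowest ratio. The authors' deposited table gave it 0.69 in HCD-HCD and 1.65 in HCD-RD males, a ratio of 0.418 whose 95% interval ran from 0.223 to 0.783. Next was miR-149-3p, from an intron of the glypican gene Gpc1 (chr1:92850378-92850443, plus strand), at 0.63 in HCD-HCD and 1.46 in HCD-RD males in the authors' deposited table (ratio 0.432, 95% interval 0.225 to 0.829). miR-7080-3p, which overlaps an exon of Cpne7 (chr8:123130106-123130172, plus strand), stood at 0.69 in HCD-HCD and 1.44 in HCD-RD males in the authors' deposited table (ratio 0.479, 95% interval 0.291 to 0.788). On the log2 scale, the intervals of these 3 were wider than those of all 10 miRNAs on the higher side.

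Also on the lower side were 3p arms of separate hairpins of the Dlk1-Dio3 region. miR-667-3p (chr12:109720006-109720097, plus strand) stood at 1.04 in HCD-HCD and 1.97 in HCD-RD males in the authors' deposited table, with a ratio of 0.528 (95% interval 0.327 to 0.852). miR-668-3p (chr12:109734732-109734797, plus strand, an exon of the noncoding gene Mirg) was the lowest of the 10 in HCD-HCD males. It had 0.45 in HCD-HCD and 0.78 in HCD-RD males in the authors' deposited table, and a ratio of 0.577 (95% interval 0.384 to 0.866). The ratios of miR-193b-5p, miR-7058-3p and miR-92b-3p were 0.532, 0.541 and 0.704. Adjusted p-values on this side lay between 0.144 and 0.420.

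**Figure D2:**
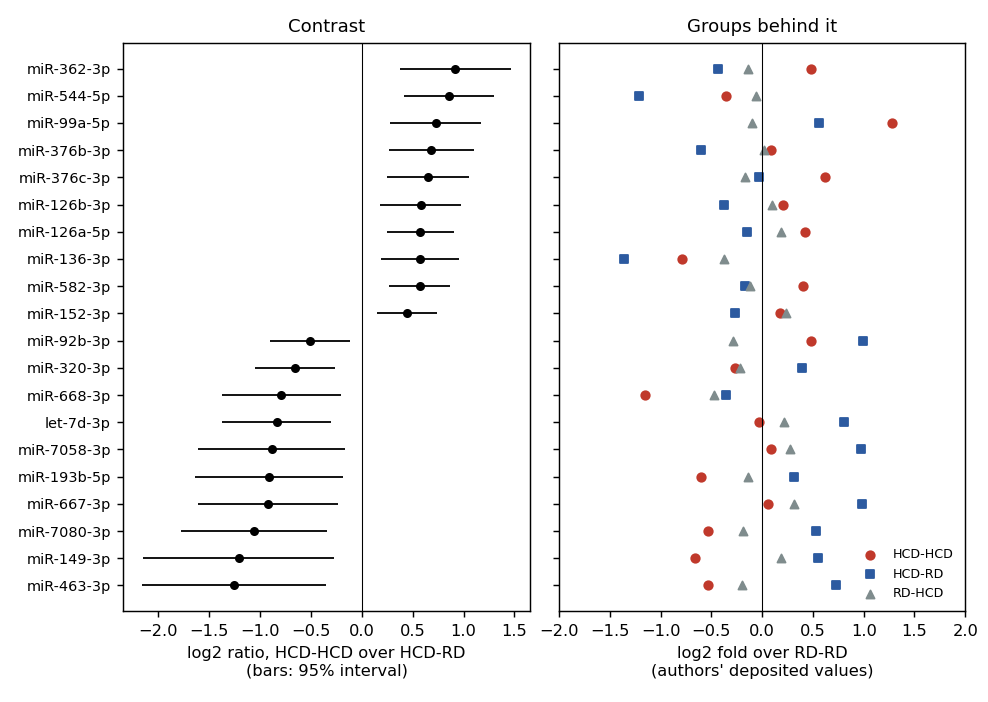
Left, the log2 ratio of HCD-HCD over HCD-RD males with its 95% interval for the 10 miRNAs of smallest p on each side; right, the deposited log2 folds over RD-RD of HCD-HCD (circles), HCD-RD (squares) and RD-HCD (triangles) behind it. The choice by an unadjusted p under 0.05 fixed in advance that no interval reaches 0. The widest intervals belong to miR-463-3p and miR-149-3p, and for most lower miRNAs the HCD-RD square lies right of 0.

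The ratios ran with the GC content of the mature sequence. A RefSeq sequence was matched to 634 of the 728 miRNAs (87.1%), with GC contents of 22.7% to 81.8% and a median of 47.8%. Across these miRNAs, Pearson's correlation of the log2 ratio with GC content was -0.50 and Spearman's -0.49, and the fitted line dropped by 0.17 in log2 per 10 percentage points. These points share the same 6 libraries, so the correlation describes the libraries and has no p. The median log2 ratio was 0.20 for the 126 miRNAs of at most 40% GC and -0.37 for the 88 miRNAs above 60% GC. Of those 88, 74 (84.1%) were lower in HCD-HCD males, while 28 of the 126 (22.2%) were. The classes in between lay in order, with medians of 0.15, 0.04, -0.07 and -0.14.

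**Figure D3:**
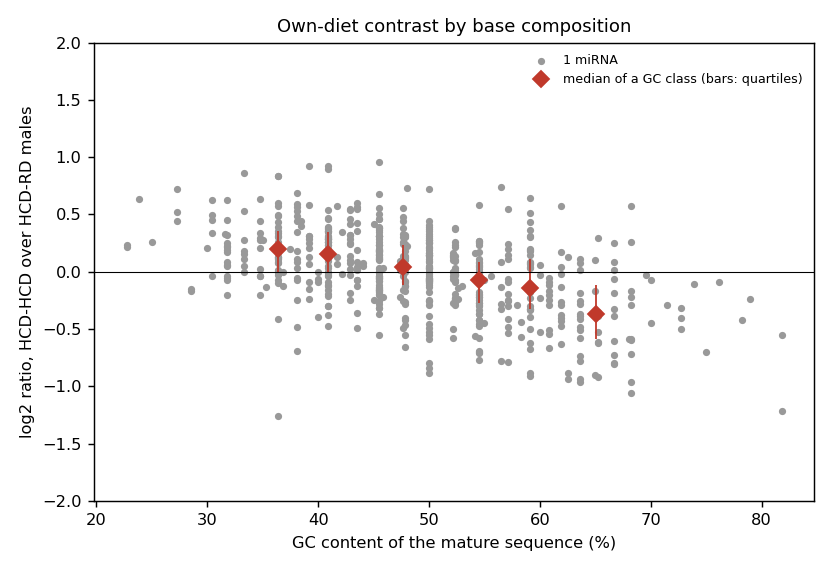
GC content of each of 634 mature miRNAs (horizontal, percent) against the log2 ratio of HCD-HCD over HCD-RD males (vertical), with the median and quartiles of 6 GC classes in red. The class medians step down with each class, from 0.20 at up to 40% GC to -0.37 above 60% GC.

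The miRNAs with an unadjusted p under 0.05 were split in the same way. Of 25 with a ratio above 1 and a sequence, 22 had at most 50% GC, and their median GC content was 38.1%. Of 23 with a ratio below 1 and a sequence, 19 had more than 50% GC, with a median of 62.5%. Over all 634 miRNAs, 238 had more than 50%. miR-425-3p (61.9% GC, ratio 1.49) and miR-540-5p (56.5% GC, ratio 1.67) were among the 3 higher ones above 50%, and were picked here after their values were seen. Length in bases ran with the ratio far less (Pearson's correlation -0.02).

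The relation was smaller in each of the other comparisons computed. The correlation with GC content was -0.08 for HCD-HCD over RD-RD and 0.17 for HCD-RD over RD-RD, both over 634 miRNAs, and these share the RD-RD libraries. The line sloped by -0.05 in log2 per 10 percentage points for HCD-HCD and by 0.12 for HCD-RD, and the slope of the contrast is the difference of these. For RD-HCD over RD-RD males the correlation was -0.04 over 633 miRNAs. In females the ratio of HCD-HCD over HCD-RD had a correlation of -0.03 over 550 miRNAs. The order numbers of the female libraries interleave, with 2, 11 and 16 in HCD-HCD and 8, 13 and 14 in HCD-RD. The part that base composition or the order numbers had in the male ratios was not tested.

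When each log2 ratio was taken relative to the line on GC content, 24 of 620 miRNAs had an unadjusted p under 0.05 and 0 passed the adjusted test, with a smallest adjusted p of 0.182. This setting was chosen after the data were seen. Of the 48 miRNAs with a sequence that had been under 0.05, 15 remained so. miR-463-3p, low in GC content, had a residual of -1.47 in log2. let-7d-3p was at -0.81, and miR-362-3p, miR-99a-5p and miR-544-5p were at 0.79, 0.75 and 0.60. Among those that did not remain were miR-92b-3p with a residual of -0.24, miR-149-3p at -0.63 and miR-668-3p at -0.48.

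A set of 4 miRNAs with the seed AUUGCAC shows both features side by side, and their sequences are printed because they differ only outside the seed in ways that alter GC content.
miR-32-5p: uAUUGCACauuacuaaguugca
miR-25-3p: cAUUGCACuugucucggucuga
miR-92a-3p: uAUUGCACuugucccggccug
miR-92b-3p: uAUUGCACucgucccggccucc
Their GC contents are 31.8%, 50%, 57.1% and 63.6% in the order printed. The ratios were 1.19 for miR-32-5p (95% interval 0.772 to 1.83) and 1.19 for miR-25-3p (95% interval 0.888 to 1.60). They were 0.836 for miR-92a-3p (95% interval 0.598 to 1.17) and 0.704 for miR-92b-3p (95% interval 0.535 to 0.924). The intervals of all 4 overlap. This set was picked after its values were seen, and not every family follows the order of GC content. With the seed CCCUGAG, miR-351-5p at 62.5% GC had a ratio of 1.10. At 50% GC, miR-125b-5p and miR-125a-5p of that family had ratios of 1.16 and 0.952.

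miR-99a-5p, miR-100-5p and miR-99b-5p, which repress mTOR through the seed ACCCGUA, all stood above 1, with the lowest ratio in the GC-richest, miR-99b-5p.
miR-99a-5p: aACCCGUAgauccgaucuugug
miR-100-5p: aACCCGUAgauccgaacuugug
miR-99b-5p: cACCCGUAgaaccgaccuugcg
miR-100-5p stood at 2.43 in HCD-HCD and 1.79 in HCD-RD males in the authors' deposited table, a ratio of 1.36 (95% interval 0.954 to 1.93). miR-99b-5p, the one with 63.6% GC, had a ratio of 1.08 (95% interval 0.748 to 1.57). Since miR-99a-5p and miR-100-5p are nearly identical, reads may be shared between them and the single values are uncertain. Of 15 seed families with at least 3 members measured, 4 had every member above 1 and 0 had every member below 1. Besides this family, the 4 were miR-200b-3p with miR-200c-3p and miR-429-3p, the miR-15 and miR-16 family, and miR-30a-5p with miR-30c-5p, miR-30e-5p and miR-384-5p. Members of these other families have at most 50% GC. The miR-15 and miR-16 family, which represses cell cycle genes, had 6 members between 1.07 and 1.31.

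Both arms of 209 hairpins were measured. In 124 of the 194 with no arm at exactly 1 (63.9%), both arms lay on the same side, and the correlation across hairpins was 0.39. In 5 hairpins both arms had an unadjusted p under 0.05, namely those of miR-9 and miR-544 above 1 and those of miR-423, miR-877 and miR-92b below 1. For miR-423, the 5p arm had a ratio of 0.581 and the 3p arm 0.651. For miR-877 the ratios were 0.535 and 0.628 in the same order of arms, and for miR-92b 0.541 and 0.704. All 6 arms of these 3 hairpins have more than 50% GC. The arms of miR-9 and miR-544 have at most 36.4%. Within 162 hairpins whose arms differ in GC content, the richer arm had the lower ratio in 96 (59.3%). For other leading higher miRNAs the second arm was at 1.06 (miR-582-5p), 1.12 (miR-376b-5p), 0.951 (miR-376c-5p), 0.859 (miR-152-5p) and 1.19 (miR-99a-3p). It was at 1.14 for miR-126b-5p, 1.26 for miR-136-5p and 1.49 for miR-362-5p. For leading lower ones it was at 0.869 (miR-149-5p), 0.80 (miR-193b-3p), 0.667 (miR-667-5p) and 0.674 (miR-668-5p).

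Lists of miRNAs with known roles were read against the background of all 728, whose median log2 ratio was 0.02. Of the 713 tested, 7.85% had an unadjusted p under 0.05. No list had a member with an adjusted p under 0.05. The members were chosen with earlier results of these data known, so counts and medians are descriptions. Members with a low-count remark are counted in the list size and have no value.

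For feeding circuits and neuroendocrine cells, 18 of 18 members had no remark, and 15 stood above 1, 2 below and 1 at 1. The median log2 ratio was 0.27, with 1 member above 1 at an unadjusted p under 0.05. That was miR-384-3p, at 1.5 in HCD-HCD and 0.91 in HCD-RD males in the authors' deposited table (ratio 1.65, 95% interval 1.12 to 2.43). Its sequence is only 27.3% GC. miR-7a-5p, abundant in neurosecretory neurons, had a ratio of 1.16 (95% interval 0.631 to 2.12). miR-107-3p, which lies in an intron of Pank1 and is known for an effect on insulin sensitivity, had a ratio of 1.24 (95% interval 0.965 to 1.59). The miR-200 family, which maintains epithelial identity by repressing Zeb1 and Zeb2, gave ratios of 1.16 to 1.51 for its 5 members miR-141-3p, miR-200a-3p, miR-200b-3p, miR-200c-3p and miR-429-3p. In the authors' deposited table these 5 lay at 0.32 to 0.62 in HCD-HCD males and 0.25 to 0.50 in HCD-RD males. For 4 of them the contrast had no p or error. miR-375-3p, a miRNA of endocrine cells, had a ratio of 0.785 (95% interval 0.494 to 1.25).

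The miR-183 cluster, known from sensory neurons, had 3 of 5 members without a remark. In the authors' deposited table, miR-96-5p stood at 0.38 in HCD-HCD and 0.20 in HCD-RD males, a ratio of 1.90 (95% interval 0.900 to 4.01). miR-183-5p stood at 0.65 in HCD-HCD and 0.35 in HCD-RD males in the authors' deposited table (ratio 1.86, 95% interval 0.873 to 3.95). The values of miR-182-5p in the authors' deposited table were 0.63 in HCD-HCD and 0.38 in HCD-RD males (ratio 1.66, 95% interval 0.773 to 3.56). All 3 folds were below RD-RD in both groups, and every interval holds 1. The serotonin receptor gene Htr2c carries a further group in its introns, of which 9 of 10 had no remark, with 5 above 1, 4 below and a median log2 ratio of 0.13. Its member with the smallest p, miR-448-5p, had a ratio of 1.5 (95% interval 0.910 to 2.47).

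Of 14 neuron-enriched miRNAs, 9 stood above 1 and 5 below, with a median log2 ratio of 0.17. The 3 at an unadjusted p under 0.05 were above 1. miR-9-5p, which acts in neural progenitors and neurons, stood at 1.18 in HCD-HCD and 0.87 in HCD-RD males in the authors' deposited table (ratio 1.36, 95% interval 1.07 to 1.72). The ratios of miR-9-3p and of miR-137-3p, a regulator of synaptic genes, were 1.25 and 1.56. miR-124-3p, the most neuron-specific of the list, was at 1.03 (95% interval 0.720 to 1.47). Activity-induced miRNAs, of which miR-132 and miR-212 are transcribed through CREB, had 2 of 5 above 1 and a median log2 ratio of -0.23. Their best known member, miR-132-3p, stood at 1.41 in HCD-HCD and 1.72 in HCD-RD males in the authors' deposited table (ratio 0.820, 95% interval 0.532 to 1.26).

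Inflammation-related miRNAs had 13 of 14 members without a remark, of which 9 stood above 1, 3 below and 1 at 1, with a median log2 ratio of 0.043. miR-146b-5p, induced by NF-kB and repressing its upstream kinases, had the smallest p. It stood at 1.16 in HCD-HCD and 0.91 in HCD-RD males in the authors' deposited table (ratio 1.27, 95% interval 1.00 to 1.62). Its relative miR-146a-5p had a ratio of 1.19 (95% interval 0.929 to 1.54). miR-155-5p, an activator of inflammatory responses in myeloid cells, was at 2.47 in HCD-HCD and 2.04 in HCD-RD males in the authors' deposited table. Its ratio was 1.21 (95% interval 0.760 to 1.93). The interval excludes a doubling and leaves a range of smaller differences in both directions.

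Markers of other cell types were read for the same males. Of 6 endothelial and mural markers, 5 stood above 1, with a median log2 ratio of 0.30 and with miR-126a-5p and miR-143-3p at an unadjusted p under 0.05. miR-143-3p, a miRNA of smooth muscle and pericytes, had a ratio of 1.36 (95% interval 1.02 to 1.82). Of 6 microglia and leukocyte markers, 5 stood above 1 with a median of 0.28. Of 5 erythrocyte markers, 3 stood above 1 with a median of 0.21. Of 5 oligodendrocyte markers, 4 had no remark, and 2 of these stood above 1 with a median of -0.0054. Of 9 choroid plexus and ependymal markers, 8 had no remark, and 2 stood above 1 with a median of -0.061. Of 7 muscle and liver markers, 6 had no remark, and 4 stood above 1 with a median of 0.16. None of these last 5 lists had a member at an unadjusted p under 0.05. The part of cell composition in the ratios was not tested.

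Among lipid and glucose regulators, 18 of 18 had no remark, with 12 above 1, 4 below and a median log2 ratio of 0.12. miR-143-3p was the one under an unadjusted p of 0.05. miR-335-5p, from an intron of the imprinted gene Mest, had a ratio of 1.37 (95% interval 0.972 to 1.92). miR-33-5p, which lies in an intron of Srebf2 and represses the cholesterol exporter Abca1, stood at 0.25 in HCD-HCD and 0.21 in HCD-RD males in the authors' deposited table. The ratio was 1.19 (95% interval 0.764 to 1.85, unadjusted p = 0.441). The leukocyte miRNA miR-142a-5p showed a like layout, 0.26 in HCD-HCD and 0.18 in HCD-RD males in the authors' deposited table (ratio 1.44, 95% interval 0.905 to 2.31, unadjusted p = 0.123). let-7b-5p was high in both, at 2.22 in HCD-HCD and 2.44 in HCD-RD males in the authors' deposited table (ratio 0.910, 95% interval 0.645 to 1.28, unadjusted p = 0.591). For these 3 miRNAs both folds lie on the same side of RD-RD, and each interval of the ratio holds 1.

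The next families had median log2 ratios between -0.12 and 0.23, against 0.02 over all 728 miRNAs. let-7 and miR-98 guides had 6 of 11 above 1, a median log2 ratio of 0.016, and ratios of 0.848 to 1.16. The miR-99, miR-100 and miR-125 list had 5 of 6 above 1 with a median of 0.18. The miR-101 family had 2 of 5 above 1 and 3 at exactly 1, with a median of 0, although in the authors' deposited table miR-101a-3p stood at 0.29 in HCD-HCD and 0.24 in HCD-RD males. The miR-29 family, repressors of collagen genes, had 6 of 7 above 1 and a median of 0.051. The miR-30 family had 7 of 9 above 1 and a median of 0.20, and the miR-15, miR-16 and miR-195 family 6 of 6 above 1 and a median of 0.23. Of the miR-17 to miR-92 clusters, 4 of 10 stood above 1 and the median was -0.019, with miR-92b-3p the one at an unadjusted p under 0.05. Of 4 members of the miR-130 and miR-301 family, 1 stood above 1 and the median was -0.12.

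The last lists hold clusters from imprinted and repeated loci. In the Dlk1-Dio3 cluster 87 of 100 members had no remark, 48 stood above 1, 38 below and 1 at 1, and the median log2 ratio was 0.097. At an unadjusted p under 0.05 there were 7 above 1 and 4 below, and its ratios ran between 0.528 and 1.81. The 4 below (miR-667-3p, miR-668-3p, miR-3072-3p and miR-485-3p) have GC contents of 54.5% to 66.7%. Of the 7 above, 6 have a sequence, and 5 of these 6 have at most 38.1%. In the miR-344 family 8 of 16 members had no remark, and all 8 stood above 1 with a median of 0.24. miR-344b-3p among them had a ratio of 1.37 (95% interval 1.03 to 1.84). Of 44 members of the Sfmbt2 intron families 22 had no remark, 15 of them above 1 and 7 below, with a median of 0.11 and none at an unadjusted p under 0.05.

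Medians of the lists were also read relative to the line on GC content, over members with a sequence, against 0.0094 in log2 over all 634. The highest was that of the miR-183 cluster, at 0.76 over 3 members. The miR-99, miR-100 and miR-125 list stood at 0.38 over 6 members, the miR-344 family at 0.27 over 8, feeding circuits at 0.22 over 16 and the miR-15, miR-16 and miR-195 family at 0.20 over 6. Neuron-enriched miRNAs were at -0.0023 over 10 members. let-7 and miR-98 guides were at -0.15 over 11 members, and the miR-130 and miR-301 family was lowest at -0.21 over 3. The other 16 lists lay between -0.10 and 0.14.

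**Figure D4:**
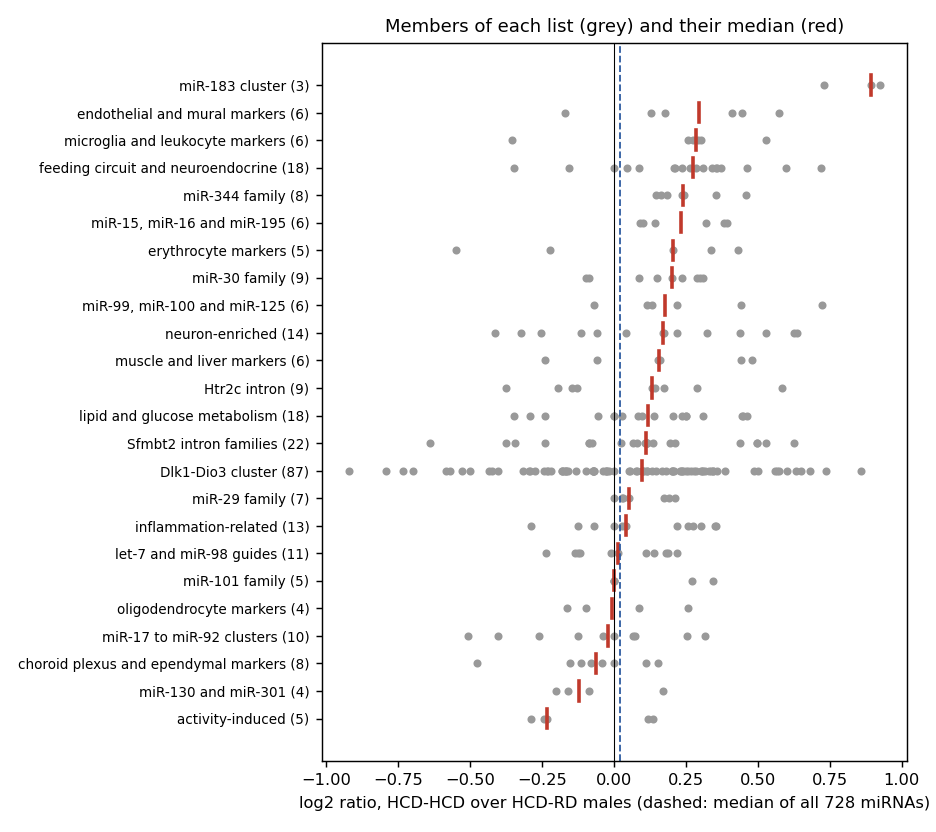
Log2 ratio of HCD-HCD over HCD-RD males (horizontal) for the members of 24 lists (rows, number of members with no remark in brackets), with each list's median as a red bar, the median of all 728 miRNAs as a dashed line and 1 grey point per miRNA. The miR-183 cluster, with 3 members, has the highest median, and the Dlk1-Dio3 cluster spans most of the range.

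Whether the own-diet ratio depended on the diet of the dam was tested over 709 miRNAs as the HCD-HCD over HCD-RD ratio against the RD-HCD over RD-RD ratio. No miRNA passed, with 0 of 709 (0%) at an adjusted p under 0.05 and a smallest adjusted p of 0.15 in the normal test with Benjamini-Hochberg adjustment. At an unadjusted p under 0.05 there were 56 (7.9%), against 35.45 that the threshold alone gives. Of these, 34 had the higher ratio under HCD dams and 22 the higher ratio under RD dams. Both contrasts were of like size. Over the same 724 miRNAs the median absolute log2 ratio was 0.226 under HCD dams and 0.237 under RD dams, and 69 miRNAs under HCD dams and 75 under RD dams differed by at least 1.5-fold. The own-diet ratios under the 2 maternal diets share no library. Their Pearson's correlation across 724 miRNAs was -0.14 and Spearman's -0.11, and 309 of 693 (44.6%) lay on the same side of 1.

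The 6 miRNAs with the smallest p for this difference were taken after their values were seen, and each had an adjusted p of 0.15. Beside its folds given above, miR-136-3p stood at 0.77 in RD-HCD males in the authors' deposited table, below RD-RD. The log2 difference of its own-diet ratios was 0.95 (95% interval 0.43 to 1.47). miR-582-3p, at 0.92 in RD-HCD males in the authors' deposited table, had a log2 difference of 0.69 (95% interval 0.28 to 1.10). These 2 were also among the 10 higher miRNAs above.

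For miR-96-5p the own-diet ratio was 1.90 under HCD dams, against 0.33 for RD-HCD over RD-RD males in the authors' deposited table. miR-342-5p, whose hairpin lies in an Evl intron, went the other way: its own-diet ratio was 0.575 under HCD dams, against 2.09 under RD dams in the authors' deposited table. The other arm of this hairpin, miR-342-3p, had a ratio of 1 under HCD dams, against 1.17 under RD dams in the authors' deposited table. The log2 difference of miR-96-5p was 2.53 (95% interval 1.05 to 4.0) and that of miR-342-5p -1.86 (95% interval -2.90 to -0.82). miR-488-3p and miR-7656-5p had log2 differences of 0.78 and 2.40. The correlation of this difference with GC content was -0.29 over 633 miRNAs.

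**Figure D5:**
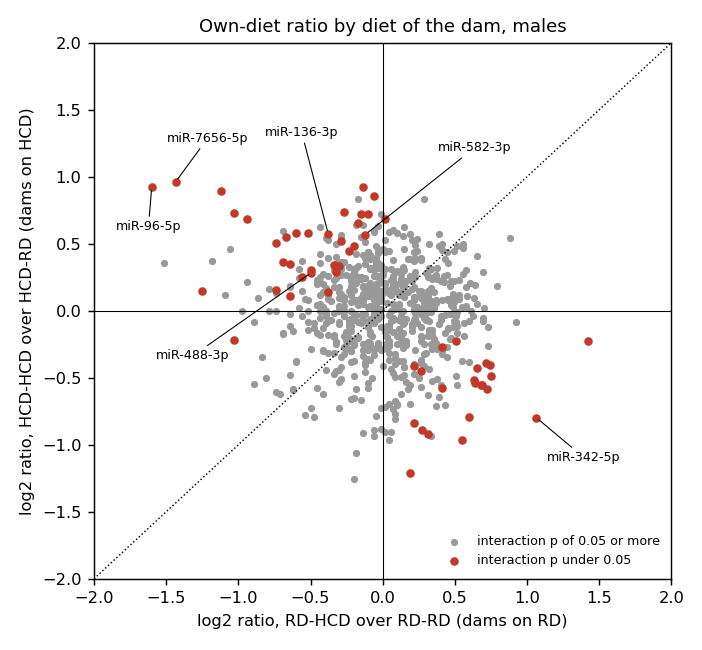
Log2 own-diet ratio of each of 724 miRNAs in males of RD dams (RD-HCD over RD-RD, horizontal) and of HCD dams (HCD-HCD over HCD-RD, vertical), with the 56 miRNAs at an unadjusted p under 0.05 for the difference in red and a dotted line at equal ratios. The red points lie off that line on both sides, with miR-96-5p at the upper left and miR-342-5p at the lower right.

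In females the same ratio had to be formed from 2 tables that were normalised separately, so values are set side by side without a test. Over 629 miRNAs measured in both sexes, Pearson's correlation of the log2 ratios was 0.28 and Spearman's 0.24. Over all 629 the median log2 ratio in females was 0.024. Of the 10 leading higher miRNAs of males, 9 also had a ratio above 1 in females, with a median of 1.25 there. The 10 are not independent, since miR-376b-3p and miR-376c-3p are neighbours and miR-126a-5p and miR-126b-3p share a locus. miR-99a-5p had a ratio of 1.65 in males and 1.67 in females. For miR-582-3p the ratio was 1.48 in males and 1.49 in females. miR-136-3p was the exception, at 0.889 in females.

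Of the 10 leading lower miRNAs, 5 had a ratio below 1 in females, and the median was 0.963. miR-463-3p had a ratio of 0.418 in males and 0.460 in females. The female ratio was 0.525 for miR-149-3p and 0.624 for miR-668-3p. let-7d-3p, at 0.560 in males, was at 1.55 in females, and miR-92b-3p, at 0.704 in males, was at 1.62. The female folds behind let-7d-3p were 1.44 in HCD-HCD and 0.93 in HCD-RD in the authors' deposited tables.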

How the data were processed

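Small RNA was sequenced with a QIAseq miRNA library kit, per the labels' protocols. The fold is a linear ratio of a group over RD-RD after the authors' normalisation with DESeq2, per the file headers, deposited to 2 decimals. The p-value is the authors' unadjusted value from DESeq2, per the file headers. The fold regulation score deposited beside it is the fold, or minus its inverse below 1. Aligner, counter and versions: not given in the sources used here. The submitters' processing notes name build mm10. Of 1721 entries, 103 are piRNAs, and 7 miRNA entries name more than 1 miRNA. Depth is unknown, so precision comes from the deposited p-values.

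The error of each log2 fold was its size over the normal score of its p, not taken for a log2 fold under 0.1. The variance of the contrast was the mean of both, rescaled to 3 against 3 libraries, with equal spread in all groups assumed. A two-sided normal test with Benjamini-Hochberg adjustment was used, since the tables hold no counts to test. The same construction for HCD-HCD over RD-HCD was set beside the authors' direct deposited list. Over 28 miRNAs the median gap was 0.046 in log2 and the largest 0.72 (miR-101c). The ratio of errors had a median of 1.09 and ran from 0.92 to 1.41. All 28 differ by at least 2-fold in the direct list, so smaller ratios were not checked in this way. The code was tested on simulated data. Alternatives changed the miRNAs tested, the error, the adjustment, the threshold, the centring and the fold column. Python 3.11.15, pandas 2.3.3 and SciPy 1.17.1 were used. Hairpin positions come from GENCODE M21 on GRCm38.

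Named were the 10 smallest p-values on each side at an unadjusted p under 0.05, up to 3 tested members per list with the smallest p, and miR-33-5p, miR-142a-5p and let-7b-5p. Further names were chosen after their values were seen. The members and lists were chosen with earlier results of these data known. Near-identical miRNAs can share reads, so their single values are uncertain.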

Additional observations from a re-analysis of the deposited data

How the results depend on the processing

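The test of HCD-HCD over HCD-RD males called 0 miRNAs under 15 settings that kept an adjusted threshold. An unadjusted threshold gave 56 miRNAs at 0.05 and 18 at 0.01 for this contrast, and 56 at 0.05 for its difference between maternal diets. The count at an unadjusted p under 0.05 was 115 of 1398 with low-count miRNAs kept, 18 when the variances of both comparisons were summed without allowing for the shared RD-RD libraries, and 24 of 620 relative to the line on GC content, a setting added after the data were seen. Summing counts the RD-RD libraries into the error. Keeping low-count miRNAs raised the number tested from 713 to 1398. The cause of the shift relative to the line on GC content was not tested. The 20 leading miRNAs kept their direction and their side of the threshold in all 276 values over 14 settings, with adjusted p-values of at least 0.069. Most of these settings leave the ratio itself unchanged. Direction could differ only with centred ratios, the fold regulation score or the line on GC content. Larger errors and stricter adjustments could only raise an adjusted p. With low-count miRNAs kept, the correlation with GC content was -0.31 over 1326 miRNAs, and that of the own-diet ratios under both maternal diets -0.054 over 1541. No paired analysis was possible because the tables used here hold no value per library. For the same reason the alternatives without each library and with a replicate block were not run. Folds of 2 decimals and errors implied by a p limit small ratios, and depth is unknown.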

Other observations

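The male table also holds piRNAs, small RNAs best known for silencing transposons in the germ line. Of 103 entries, 46 had no remark in HCD-HCD and HCD-RD males. Of these, 40 had a ratio of HCD-HCD over HCD-RD below 1 and 6 above 1, with a median log2 ratio of -0.25. Among the 728 miRNAs of the same contrast, 331 stood below 1 and the median log2 ratio was 0.02. The GC content of the piRNA entries was not examined. At an unadjusted p under 0.05 there were 3 piRNAs, of which 2 were above 1 and 1 below, and 0 passed the Benjamini-Hochberg adjustment of the normal test with piRNAs included. Nothing was tested on what these entries are in hypothalamus.

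The 819 miRNAs with a low-count remark in either comparison and a fold in both had a median log2 ratio of 0. Of these low-count miRNAs and the others together, 115 of 1398 had an unadjusted p under 0.05, of which 59 carried a remark.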
